A study of Mus musculus with 6 samples.

Results

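The genes described here are those of the proteasome and its regulators. They were taken by gene symbol, as every symbol that starts with Psm, a letter from a to g and a number. This gave 49 genes among the 18193 genes with a symbol of their own on the array, and 44 of the 49 were bright enough to be tested. The symbol also brought in 2 genes whose proteins are not parts of the proteasome: Psmc3ip, a recombination factor that binds Psmc3, and Psme3ip1, a partner of Psme3. Psme2 was read only by a probe set that the annotation shares among several genes and has no value here.

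The RNA came from mouse hippocampus and was measured on 6 Affymetrix whole-genome expression arrays, on which a gene is read by 1 or more probe sets. The 3 HuD arrays held RNA recovered on protein-G beads with anti-myc antibody against transgenic HuD. The 2 IgG arrays held RNA from such beads with non-immune IgG, and the input array held total RNA. HuD, encoded by Elavl4, is a neuronal RNA-binding protein of the ELAV family that binds U-rich and AU-rich stretches of mRNA and affects mRNA stability and translation. The labels give no age, strain or sex, no promoter of the transgene, and no word on whether the IgG and input RNA came from transgenic mice. The antibody is directed at the added, tagged HuD, and the share of bead background on the HuD arrays was not measured. Nor do the labels say whether each array stands for an animal of its own, so the p-values cover array-to-array spread only, some or all of which may be technical.

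The proteasome degrades proteins that have been marked with ubiquitin. Its core is a barrel of stacked rings, with alpha subunits (Psma) at the ends and beta subunits (Psmb) in the middle, and some beta subunits carry the cutting sites. A regulatory particle caps the core: its base holds a ring of ATPases (Psmc) that unfold substrates, and its lid (Psmd) removes ubiquitin. Other caps act as activators (Psme), Psmf1 encodes an inhibitor, and chaperones (Psmg and some Psmd) assemble the core and the base. In neurons the proteasome is known for its part in the turnover of synaptic proteins.

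Signals are the deposited intensities, and differences are on the scale of log2(signal + 32), which understates the change of dim genes. Each gene was read by its probe set with the highest mean. The errors printed after ± are SEs of a log2 difference, and "rose" and "fell" are used for genes with a limma p-value under 0.05 after Benjamini-Hochberg adjustment over the 9097 genes tested. All arrays had been scaled to 1 common level before deposit, so a value is a share of the RNA on that array and not an amount pulled down. The arrays of a group were not equally alike: over the tested genes, log2 differences had an SD of 0.616 between the IgG arrays, and of 0.314 to 0.457 between HuD arrays. Elavl4 itself rose on the HuD arrays against IgG, by 1.46 ± 0.25 or 2.75-fold (adjusted p = 0.00111). The transgene makes RNA of that gene, and whether this probe set reads it was not tested.

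Most proteasome genes made up a smaller share of the RNA on the HuD beads than on the IgG beads. Of the 44 tested, 35 fell, where 34.0% of all tested genes fell. Another 4 rose, where 21.5% of all tested genes rose: Psmd11, Psmb3, Psmc6 and Psme3ip1. The other 5, namely Psmb2, Psmd2, Psmd3, Psmd5 and Psmg4, did not pass the test. The median log2 difference was −1.135 over the 44, against −0.28 over all tested genes. All 3 HuD signals lay below both IgG signals in 33 of the 44 genes, as in 43.1% of all tested genes, and above both in 5, as in 27.6%. Fewer called falls are found when arrays are centred on their 75th percentile, a setting that moves the median of all tested genes from −0.28 to 0.03: then 23 members fell and 4 rose, the falls of Psma2, Psma3, Psma5, Psmb1, Psmc5, Psmd7, Psmd8, Psmd9, Psmd10, Psme3, Psme4 and Psmf1 no longer passing, while 18.7% of all tested genes fell and 27.9% rose. The members' median minus that of all tested genes was −0.85, a value that centring cannot change. Under quantile normalization, which can change it, it was −0.92. In that setting 29 members fell and 4 rose, while 25.1% of all tested genes fell and 23.3% rose.

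**Figure D1:**
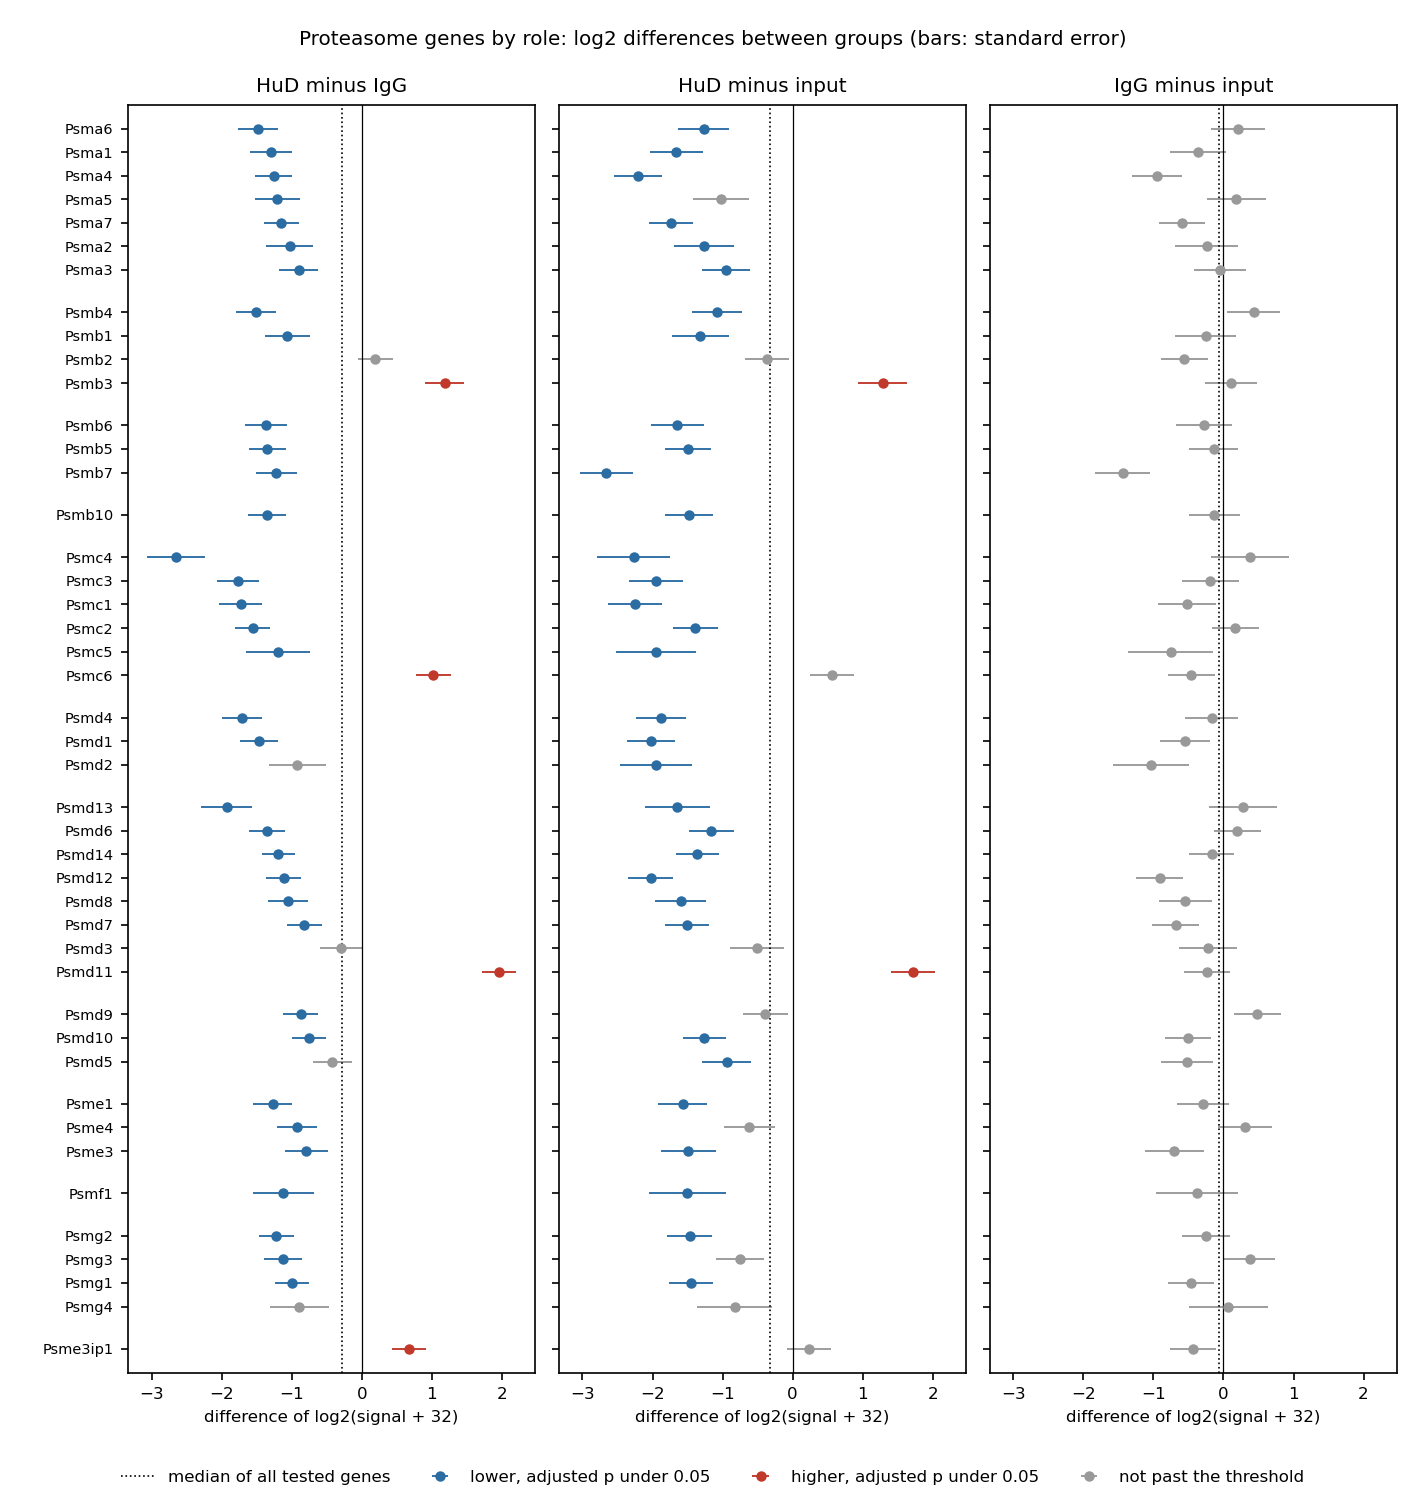
Log2 difference of each tested proteasome gene for HuD against IgG, HuD against input and IgG against input, with genes grouped by role, bars showing standard errors and a dotted line at the median of all tested genes. Blue points are lower and red points higher at an adjusted p under 0.05, and grey points did not pass. Most points of both HuD panels lie to the left of 0, Psmd11 and Psmb3 lie to the right in both, and no point of the third panel passed.

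Every tested gene of the alpha ring fell. The alpha subunits form the gates of the core, and 7 of 7 were lower with HuD than with IgG, with a median of −1.20 and a range from −1.48 to −0.90. Psma6 had the largest difference, with signals of 1479, 1824 and 2018 on the HuD arrays, 3659 and 6769 on the IgG arrays and 4290.3 in the input. The HuD signals lay below all the others, and the difference was −1.48 ± 0.29, or 2.80-fold (adjusted p = 0.00189). Psma3 had the smallest, with HuD signals of 2010.5, 1748 and 2072 against IgG signals of 2731 and 4863 and an input of 3776. Its groups did not overlap either, and it fell by 0.90 ± 0.27 (1.87-fold, adjusted p = 0.0169). Psma1, Psma2, Psma4, Psma5 and Psma7 lay between these values, and in each all 3 HuD signals were below both IgG signals. The calls on Psma2, Psma3 and Psma5 were lost without IgG array 2, where the differences were −0.43, −0.49 and −0.67, and that of Psma1 was lost when its probe sets were averaged (−0.41). The call on Psma2 was also lost without HuD array 1 or 3 (−0.96 and −0.98), and that on Psma3 without HuD array 1 or 2 (−0.93 and −0.83). Without IgG array 1 the difference of Psma2 was −1.63. The other probe sets of Psma1 were all too dim to be tested alone, so averaging draws its value towards 0.

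The beta subunits with cutting sites fell together. Psmb5, Psmb6 and Psmb7, the catalytic subunits of the standard proteasome, had differences of −1.35 ± 0.26, −1.37 ± 0.29 and −1.22 ± 0.30, and each was past the threshold (adjusted p from 0.00187 to 0.00555). Psmb6 read 576, 524 and 758 with HuD, 1244 and 2124 with IgG and 1979 in the input. Psmb7 read 194, 122 and 151 with HuD, 309 and 514 with IgG and 1138 in the input, so that both pulldowns lay below the input and HuD lay lowest. Psmb10, one of the subunits that replace the standard ones in the interferon-induced immunoproteasome, fell by 1.36 ± 0.27 (2.56-fold, adjusted p = 0.00211). Its signals were 114, 146 and 87.9 with HuD, 310.2 and 377 with IgG and 377 in the input. The other inducible subunits were too dim to be tested: Psmb8 read at most 23.1 on any array and Psmb9 at most 34.5. So was Psmb11, the thymus subunit, which read at most 3.37. The alpha subunit Psma8, known from the testis, was equally left out, with signals up to 15.4. The table holds no detection calls, so none of these genes can be called absent.

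The structural beta subunits, which have no cutting site, divided. Psmb4 read 1698, 1504 and 2135 with HuD, 3825 and 6726 with IgG and 3753 in the input, and it fell by 1.51 ± 0.28 (2.85-fold, adjusted p = 0.00162). Psmb1 fell by 1.06 ± 0.32 (adjusted p = 0.0165), a call lost without IgG array 2 (−0.60), HuD array 1 (−1.03) or HuD array 3 (−0.93), and with its probe sets averaged (−0.23). Psmb3 went the other way: it read 5058, 6123 and 5729 with HuD, 1803 and 3346 with IgG and 2288 in the input. All 3 HuD signals lay above every other array, and the rise was 1.18 ± 0.28, or 2.27-fold (adjusted p = 0.00463). It was 0.74 without IgG array 1 and still past the threshold. Psmb2 read 262, 242 and 217 with HuD and 210.0 and 199.8 with IgG, with an input of 317. Its pulldown groups did not overlap, but the difference of 0.20 ± 0.25 did not pass (adjusted p = 0.515). The 4 structural subunits thus held a rise, a difference near 0 and a pair of falls, with a median of −0.43. That median was −0.22 without IgG array 2, −0.28 with arrays centred on their median, −0.12 on their 75th percentile, −0.27 under quantile normalization and −0.015 with probe sets averaged.

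The ATPases of the base held the largest fall. These 6 proteins form the ring that pulls substrates into the core, and 5 of them fell and Psmc6 rose, with a median of −1.64. Psmc4 read 173, 607 and 249.55 with HuD, 2485 and 1715 with IgG and 1576 in the input. The groups were far apart although the HuD signals themselves varied, and the difference was −2.65 ± 0.41, or 6.30-fold (adjusted p = 0.000681). A second, dimmer probe set of Psmc4 fell by 1.43. Psmc3 read 281, 375 and 181 with HuD, 1057 and 929 with IgG and 1134 in the input, a difference of −1.77 ± 0.30 (3.41-fold, adjusted p = 0.00106). Psmc1 read 187, 269 and 139.8 with HuD, 865 and 588 with IgG and 1039 in the input, a difference of −1.73 ± 0.31 (3.32-fold, adjusted p = 0.00123). Psmc2 was brighter throughout, with 1362, 1595 and 1890.2 with HuD, 4059 and 5618 with IgG and 4246 in the input. It fell by 1.56 ± 0.25 (2.94-fold, adjusted p = 0.0008). In Psmc1 to Psmc4 no HuD signal reached either IgG signal or the input. The difference of Psmc1 was smaller, −0.89, where the log2 values of its probe sets were averaged, the other of which was too dim to be tested alone.

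Psmc5 was the least certain of the ATPases that fell. It read 170.1, 311 and 129 with HuD, 874 and 256 with IgG and 830.4 in the input, so the groups overlapped. The difference was −1.19 ± 0.45 (2.29-fold, adjusted p = 0.0424). It shrank to −0.37 and was not called without IgG array 1, and it grew to −2.02 without IgG array 2. With the title suffix as a block it was −1.10 and did not pass (adjusted p = 0.0616).

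**Figure D2:**
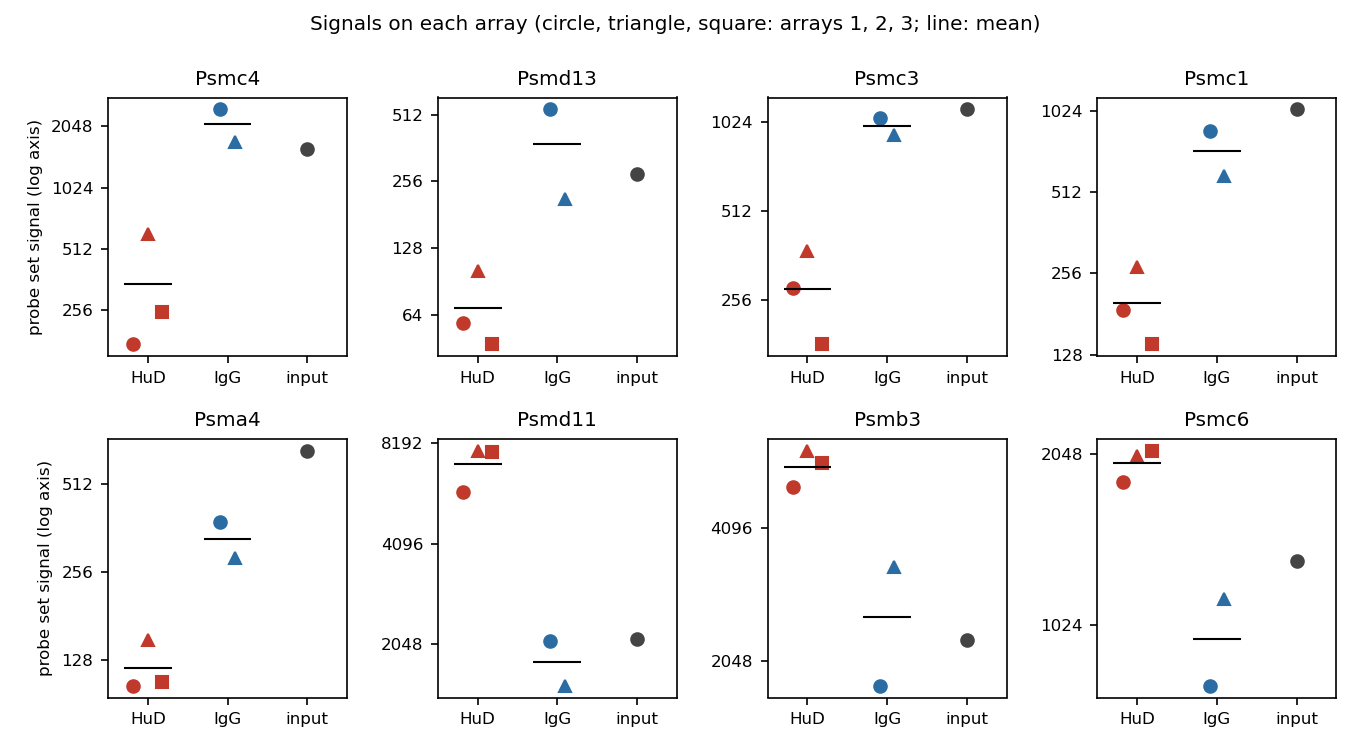
Deposited signals on a log axis for Psmc4, Psmd13, Psmc3, Psmc1, Psma4, Psmd11, Psmb3 and Psmc6, with 1 point per array in the HuD, IgG and input groups and a line at the mean of each pulldown group. The HuD points of Psmd11, Psmb3 and Psmc6 lie above the IgG points, and those of the other genes lie below them.

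Among the base subunits without ATPase activity, Psmd4, a receptor for ubiquitin chains, read 178, 298 and 197 with HuD, 904 and 688 with IgG and 891 in the input. The HuD arrays were the 3 lowest, and the difference was −1.71 ± 0.29 (3.26-fold, adjusted p = 0.000949), or −0.94 where its probe sets were averaged. Psmd1, one of the large scaffold subunits, fell by 1.46 ± 0.27 (2.76-fold, adjusted p = 0.00145). Its partner scaffold Psmd2 read 359.98, 604 and 234 with HuD, 1101 and 483 with IgG and 1536 in the input. Its groups overlapped and its difference of −0.92 ± 0.40 did not pass (adjusted p = 0.0725). It was −1.24 and past the threshold without HuD array 2, −1.49 without IgG array 2 and −0.35 without IgG array 1. Where its probe sets were averaged it was −0.31 (adjusted p = 0.298), but the only other probe set was too dim to be tested alone.

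The lid held the largest rise of all members beside 6 falls. Psmd11, a lid scaffold subunit known to promote assembly of the whole proteasome, read 5845, 7794 and 7731 with HuD, 2089 and 1532 with IgG and 2121 in the input. Every HuD signal was above every other array, and the rise was 1.96 ± 0.25, or 3.89-fold (adjusted p = 0.000259). Where its probe sets were averaged, 4 of them too dim to be tested alone, it was 1.07 and still past the threshold. Psmd13 showed the largest fall in the lid, with 58.6, 101 and 47.1 with HuD, 542 and 213 with IgG and 277 in the input. Its difference was −1.93 ± 0.37 (3.81-fold, adjusted p = 0.0017), and −0.79 where its probe sets were averaged. Psmd14, the enzyme that cuts ubiquitin chains from substrates, read 844, 947 and 913 with HuD, 1911 and 2291 with IgG and 2358 in the input, a difference of −1.19 ± 0.24 (2.28-fold, adjusted p = 0.00221). The scaffold subunits Psmd6 and Psmd12 fell, with differences of −1.35 ± 0.25 and −1.12 ± 0.25, and so did Psmd7 and Psmd8, with −0.82 ± 0.25 and −1.05 ± 0.28. The call on Psmd7 was lost without IgG array 1 (−0.60) or without HuD array 1 or 3 (−0.83 and −0.78), and that on Psmd8 without IgG array 2 (−0.68). Psmd3 read 285, 441 and 247 with HuD and 480.3 and 319.5 with IgG, with an input of 463. These overlap, and the difference of −0.29 ± 0.31 did not pass (adjusted p = 0.435) and was 0.03 with arrays centred on their 75th percentile.

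The dimmer assembly chaperones mostly fell. For the base, Psmd9 read 35.4, 67.6 and 43.8 with HuD, 112 and 116 with IgG and 72.5 in the input, a difference of −0.87 ± 0.25 (adjusted p = 0.0132) that was not past the threshold without HuD array 1 (−0.75). Psmd10, also known as gankyrin, fell by 0.75 ± 0.25 (adjusted p = 0.023), a call lost without HuD array 1 or 3 (−0.68 each) or IgG array 1 (−0.76). Psmd5 did not pass, with a difference of −0.42 ± 0.28 (adjusted p = 0.217), HuD signals of 137, 208 and 128, and IgG signals of 190.5 and 247. For the core, Psmg1, Psmg2 and Psmg3 fell, with differences of −0.99 ± 0.25, −1.22 ± 0.25 and −1.12 ± 0.27. Psmg2 read 84.4, 92.2 and 86.6 with HuD, 209.7 and 289.8 with IgG and 299.6 in the input. The HuD arrays of Psmg2 lay close together and well below the rest (adjusted p = 0.00254), and the difference was −0.59 where its probe sets were averaged, as that of Psmg3 was −0.66. The other probe set of Psmg3 was too dim to be tested alone, as was a further one of Psmg2. The remaining probe set of Psmg2 was tested and did not pass, with −0.42 ± 0.25 (limma adjusted p = 0.185 over probe sets). Psmg4 read 49.5, 30.6 and 58.5 with HuD and 45.3 and 235 with IgG, with an input of 105. Its difference of −0.89 ± 0.42 did not pass (adjusted p = 0.0911) and hung on the IgG arrays: it was −1.79 and past the threshold without IgG array 1, and 0.000178 without IgG array 2.

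The 3 measured activators fell, with a median of −0.92. Psme1, part of the interferon-induced activator, read 47.1, 74.6 and 59.0 with HuD, 243 and 145 with IgG and 239 in the input. The groups did not overlap, and the difference was −1.27 ± 0.28 (2.41-fold, adjusted p = 0.00329). Psme4 fell by 0.92 ± 0.29 (adjusted p = 0.0191), a call lost without HuD array 1 or 3 (−0.91 and −0.77) or IgG array 1 (−0.65). Psme3, the nuclear activator, read 165, 95.7 and 179 with HuD, 208 and 347 with IgG and 458 in the input. Its fall of 0.79 ± 0.31 was at the edge of the threshold (adjusted p = 0.0496) and kept its call in 4 of 16 other settings. It was lost without any of HuD arrays 1, 2 and 3 (−0.88, −0.56 and −0.93) or IgG array 2 (−0.46). The inhibitor Psmf1 read 46.5, 113 and 34.2 with HuD, 302 and 85.4 with IgG and 226 in the input. The groups overlapped, the difference was −1.12 ± 0.44 (adjusted p = 0.0459), and it was −0.37 and lost without IgG array 1, and −1.88 without IgG array 2. With the title suffix as a block Psmf1 had −1.045 and did not pass (adjusted p = 0.0691), and with its probe sets averaged −0.49 (adjusted p = 0.131). The call on Psmf1 was also lost without HuD array 1 (−1.02) or HuD array 3 (−0.89), and so was that on Psmc5 (−1.12 and −0.96).

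Single probe sets were compared because they can read different transcripts of a gene, and an array reads a gene only where its probes lie. The members had 103 probe sets, and 70 were bright enough to be tested. Of these 46 fell, where 28.9% of all 17473 tested probe sets fell, 9 rose, where 17.4% rose, and 15 did not pass. Of the 19 members with several tested probe sets, all of them fell in 10: Psma5, Psma6, Psma7, Psmb4, Psmc2, Psmc4, Psmd4, Psmd6, Psmd13 and Psme4. The like share over all genes with several tested probe sets was not computed, so this count has no background beside it.

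Psmd11 and Psmb3 rose in every tested probe set. The 4 of Psmd11 rose by 2.79, 1.96, 1.86 and 1.24 on the log2 scale. The largest of these came from a probe set that read 3371, 4895 and 5024 with HuD, 429 and 844 with IgG and 693 in the input, or 6.91-fold (adjusted p = 0.000193 over the probe sets tested). The further probe set of Psmb3 read 503, 791 and 349.8 with HuD, 190 and 176 with IgG and 351 in the input, a rise of 1.36 ± 0.33 (adjusted p = 0.00623). On it the HuD signals were above both IgG signals but not all above the input.

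Psmc6 had calls in both directions. The probe set used for the gene, of the kind shared by related transcripts, read 1829, 2029.9 and 2078 with HuD, 802 and 1138 with IgG and 1327 in the input, a rise of 1.02 ± 0.25 (2.03-fold, adjusted p = 0.00592 over genes). The probe sets used for Psmd11, Psme4, Psmf1 and Psmc3ip are of the same kind. A dimmer probe set of Psmc6 fell by 0.88 ± 0.26 (adjusted p = 0.0182 over probe sets), with 271, 354 and 279 with HuD, 533 and 624 with IgG and 663 in the input. The remaining one read 105, 153 and 111 with HuD, 42.2 and 90.8 with IgG and 133 in the input. Its HuD signals were above both IgG signals, but the difference of 0.69 did not pass (limma adjusted p = 0.0704). The rise of Psmc6 was thus called on 1 of its 3 probe sets, and the average of all 3 did not pass (0.28).

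Psme3 was split in the same manner, the other way round. The brighter probe set is the one described above, and it was not past the threshold in the fit over probe sets (adjusted p = 0.0576). The dimmer one rose by 1.43 ± 0.32, or 2.69-fold (adjusted p = 0.00462), with 272, 193 and 376 with HuD, 56.5 and 111 with IgG and 166 in the input. All 3 of these HuD signals were above every other array, and the average over the probe sets of Psme3 was 0.18. Psmb1, Psmd9 and Psmc3ip also had values on both sides of 0, but in each only the brightest probe set passed. The 3 tested probe sets of Psmf1 gave −1.12 (adjusted p = 0.0503 over probe sets), −0.17 and −0.05, and none passed. The values of Psmb1 were −1.06, 0.63 and −0.24, and those of Psmd9 were −0.87 and 0.17. Psmc3ip was too dim to be tested as a gene, and its probe sets gave −0.97, which passed, and 0.04.

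**Figure D3:**
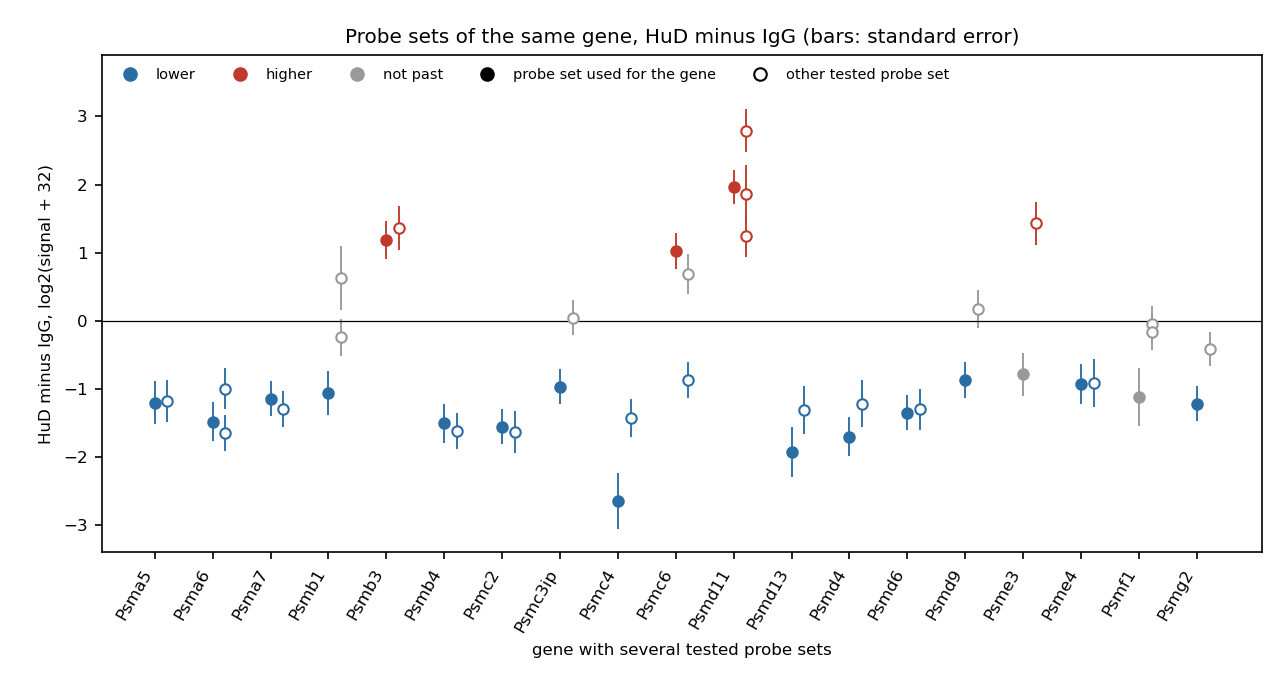
Log2 difference between HuD and IgG of each tested probe set for the members with several tested probe sets, with bars showing standard errors. Filled points are the probe sets used for the gene and open points the others, blue for lower and red for higher at an adjusted p under 0.05 over probe sets, and grey for not past it. The 4 probe sets of Psmd11 and both of Psmb3 lie above 0, and those of Psmc6 and Psme3 lie on both sides.

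Psme3ip1, which is no proteasome subunit, rose with HuD against IgG by 0.67 ± 0.25 (1.60-fold, adjusted p = 0.0366). It read 666, 629.8 and 652 with HuD, 430.3 and 362 with IgG and 545 in the input, so the groups were apart by a small step. The call was lost without HuD array 1, 2 or 3 (0.66, 0.70 and 0.67) or IgG array 2 (0.56).

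Array titles end in 1 of 2 suffixes whose meaning the labels do not give, and each suffix holds arrays of both pulldowns. Within the arrays of the suffix le1, 38 of the 44 members were lower with HuD than with IgG and the median difference was −1.095, against 5291 of all 9097 tested genes and a median of −0.27. Within those of e1_le1 the count was also 38 and the median −1.24, against 5342 and −0.24.

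Against the input RNA, which shares the HuD arrays with the comparison above and is 1 array assumed to vary like the rest, 33 of the 44 members fell, where 25.9% of all tested genes fell. Psmd11 and Psmb3 rose, where 15.7% of all tested genes rose, and 9 did not pass. The median was −1.46, against −0.32 over all tested genes. In 40 of the 44 all 3 HuD signals were below the input signal, as in 52.7% of all tested genes. The falls covered 6 of 7 tested alpha subunits, 6 of 8 beta subunits, 5 of 6 ATPases, 11 of 14 Psmd genes, 2 of 3 activators, the inhibitor and 2 of 4 core chaperones.

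The largest differences from the input were falls. The catalytic subunit Psmb7 fell by 2.66 ± 0.37 (6.31-fold, adjusted p = 0.00172), the ATPases Psmc4 and Psmc1 had differences of −2.27 ± 0.52 (4.83-fold, adjusted p = 0.00765) and −2.25 ± 0.39 (4.76-fold, adjusted p = 0.00299), and that of the alpha subunit Psma4 was −2.20 ± 0.34 (4.61-fold, adjusted p = 0.00208). Psma4 read 104, 149.8 and 107 with HuD, 379.65 and 285 with IgG and 665 in the input. Its IgG signals lay between those of HuD and the input, as did those of Psmb7 and Psmc1, while both IgG signals of Psmc4 were above the input. Psmd11 rose by 1.72 ± 0.31 (3.29-fold, adjusted p = 0.00332) and Psmb3 by 1.28 ± 0.35 (2.44-fold, adjusted p = 0.0148), but the rise of Psmb3 did not pass with no filter on dim genes (limma adjusted p = 0.0546) or with its probe sets averaged (0.91). Psmc6 had a difference of 0.56 ± 0.32 that did not pass (adjusted p = 0.17). Psmd2, which did not pass against IgG, fell by 1.95 ± 0.51 against the input (adjusted p = 0.0126). That call was lost with its probe sets averaged (−0.83), with no filter on dim genes, or with the title suffix as a block (−1.66). Psmd5 fell by 0.94 ± 0.35 (adjusted p = 0.0495), a call kept in 8 of 15 other settings. Centring on the 75th percentile gave Psmd5 −0.59 and quantile normalization −0.66, and neither passed. With probe sets averaged, Psmd11 rose by 1.06 and Psmc1 had a difference of −1.15.

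Some of these calls against the input rested on single HuD arrays. Without HuD array 1, 23 members fell, while the falls over all tested genes dropped from 2355 to 1160. The calls on Psma2, Psma3, Psma6, Psmb1, Psmb4, Psmc5, Psmd5, Psmd6, Psmd13 and Psmf1 were then lost, with differences from −1.88 (Psmc5) to −0.87 (Psmd5). Without HuD array 2 those on Psma2 (−1.38), Psma3 (−0.88) and Psmb4 (−0.97) were lost. Without HuD array 3 those on Psma2, Psma3, Psmb1, Psmd5 and Psmf1 were lost, with differences from −1.27 (Psmf1) to −0.83 (Psmd5). Psma5 and Psmg4 passed, at −1.02 and −0.82, without either IgG array.

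The control beads themselves held no member at a level past the threshold. For IgG against input 0 of 44 members fell and 0 rose, with 0% and 0.0220% of all tested genes called lower and higher by limma. At an unadjusted p under 0.05, 3 members were lower and 0 were higher, where 3.65% and 3.40% of all tested genes were. The members' median was −0.25, against −0.07 over all tested genes. The members with the largest differences were Psmb7 (−1.44 ± 0.40), Psmd2 (−1.04 ± 0.54), Psma4 (−0.95 ± 0.36) and Psmd12 (−0.91 ± 0.34), with limma adjusted p-values of 0.631, 0.723, 0.683 and 0.668. In Psmb7, Psma4 and Psmd12 both IgG signals were below the input, and in Psmd2 the same held, with 1101 and 483 against 1536. The value of Psmd2 rested on single arrays, with −1.61 without IgG array 1 and −0.47 without IgG array 2, and it was −0.52 with probe sets averaged.

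On single arrays the members could be set against the input. The median over all 44 members was −1.48, −1.28 and −1.36 on HuD arrays 1, 2 and 3, and −0.33 and −0.25 on IgG arrays 1 and 2. The HuD arrays thus lay lower than both IgG arrays, and the medians of all tested genes on the 5 pulldown arrays ran from −0.33 to −0.06. The ATPases lay lowest, at −1.99, −1.36 and −2.44 on the HuD arrays, with −0.08 and −0.25 on the IgG arrays. The alpha subunits stood at −1.52, −1.22 and −1.37 on the HuD arrays, but at −0.57 on IgG array 1 and 0.36 on IgG array 2. All 7 alpha subunits were below the input on IgG array 1 and 3 of 7 on IgG array 2. The beta subunits showed a like gap between the IgG arrays, at −0.43 and 0.08, and the core chaperones stood at −0.43 and 0.28. No test of a difference between families was made.

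**Figure D4:**
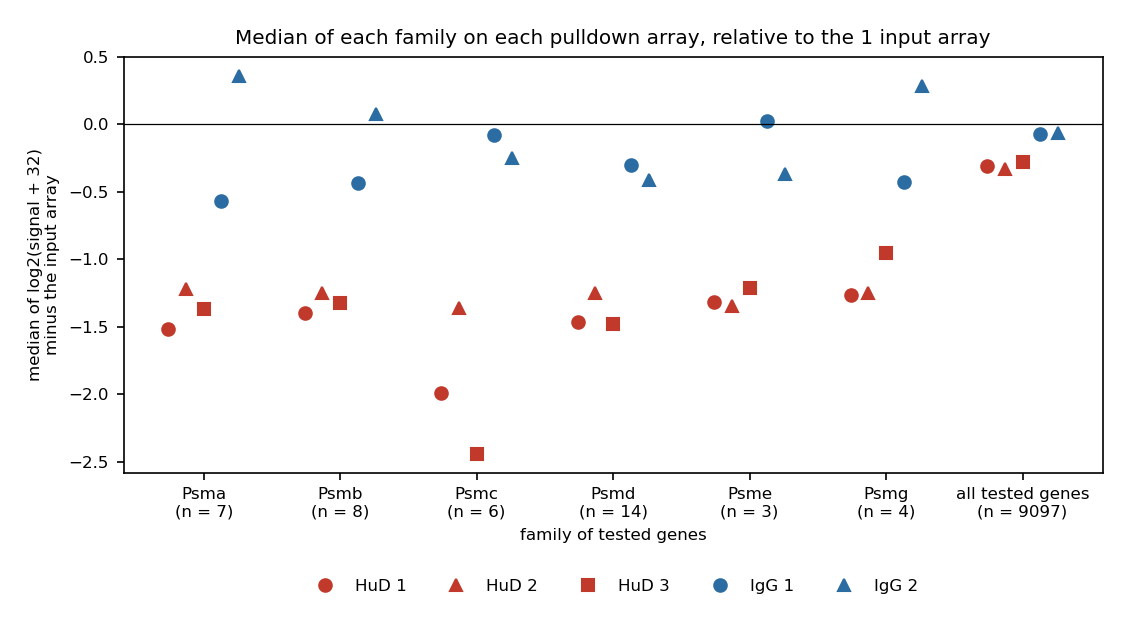
Median log2 difference from the input array over the tested genes of the families Psma, Psmb, Psmc, Psmd, Psme and Psmg, with 1 point per pulldown array and the median over all tested genes beside them. In each of these families the 3 HuD points lie below both IgG points, and the IgG points of the alpha subunits lie on both sides of 0.

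Genes that work with the proteasome under other names showed both directions, at shares near those of all tested genes. Of 21 tested proteasome-associated genes, 6 rose and 6 fell with HuD against IgG, where 21.5% of all tested genes rose and 34.0% fell, and their median was −0.09. Akirin2, which carries proteasomes into the nucleus, rose by 1.47 ± 0.32 (2.77-fold, adjusted p = 0.00312), with 2309, 3835 and 1821 with HuD, 784 and 1015 with IgG and 1309 in the input, and by 0.77 where its probe sets were averaged. Ufd1, a cofactor of the unfolding enzyme Vcp, rose by 1.46 ± 0.37 (2.75-fold, adjusted p = 0.00724), a call lost when its probe sets were averaged (0.38). Vcp fell by 1.45 ± 0.44 (adjusted p = 0.0171), a call lost without HuD array 1 (−1.34) or IgG array 1 (−0.60), and it was −2.30 without IgG array 2. The other genes that rose were Ubqln2 and Zfand5, which bring ubiquitin-marked proteins to the proteasome or bind it, and the ubiquitin ligases Ube3a and Ube3c, by 1.10 to 1.28. Those that fell with Vcp were Pomp, the chaperone that matures the core, Usp14, a ubiquitin-cutting enzyme on the regulatory particle, Ecpas, Zfand2a and Zfand2b. The array names no polyubiquitin or ubiquitin fusion gene by itself on a probe set, so 0 of these were tested.

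Of 6 transcription factors and cofactors listed for proteasome genes, 1 rose and 1 fell, where 21.5% of all tested genes rose and 34.0% fell. Nfyb, a subunit of a factor that binds CCAAT boxes, read 2687, 2800.4 and 2656 with HuD, 271 and 417 with IgG and 346 in the input. The 3 HuD signals were above all others by a wide step, and the rise was 2.90 ± 0.26, or 7.45-fold (adjusted p = 0.000125). Nfe2l1, the factor that raises proteasome genes when the proteasome is inhibited, had a difference of 0.76 ± 0.35 that did not pass (adjusted p = 0.0796). It passed without HuD array 3 (0.99) and with arrays centred on their median (0.91) or 75th percentile (1.08), and it was 0.43 and did not pass without HuD array 2 (adjusted p = 0.242), on which it read 970 against 514 and 425 on HuD arrays 1 and 3. Ngly1, which is needed to activate Nfe2l1, fell by 0.81 ± 0.27 (adjusted p = 0.025), a call lost without HuD array 1 or 3 (−0.76 and −0.71) or IgG array 2 (−0.62). The median over the 6 was 0.64, against −0.28 over all tested genes.

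The COP9 signalosome is a separate complex built like the lid. Of its 9 tested genes 5 fell and 2 rose with HuD against IgG, with a median of −0.89, where 34.0% of all tested genes fell and 21.5% rose, with a median of −0.28. These shares were not tested against those of all genes. Cops6, Cops5 and Cops4 fell, with differences of −1.44 ± 0.29, −1.30 ± 0.29 and −1.29 ± 0.27 (adjusted p of 0.0021, 0.00363 and 0.00265), and those of Cops6 and Cops5 were −0.81 and −0.68 where probe sets were averaged. Cops2 went the other way and rose by 1.498 ± 0.263 (2.82-fold, adjusted p = 0.00119), a call lost when its probe sets were averaged (0.44). The other gene that rose was Cops7b (0.78 ± 0.28, adjusted p = 0.0343).

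Cell type markers moved on these arrays too, and their part in the results on the proteasome genes was not tested. A marker value here is a share of the RNA on an array, so it gives neither a number of cells nor an amount of RNA per cell. Neuron markers were bright in this brain tissue, with input signals of 7146 for Snap25 and 5481 for Syt1. The counts of markers with HuD against IgG stand beside 34.0% of all tested genes that fell, 21.5% that rose and a median of −0.28. Of the tested markers, 2 of 8 neuron markers rose and 2 fell, with a median of 0.12. Among astrocyte markers 1 of 6 rose and 3 fell (median −0.43), and among those of hippocampal neurons 1 of 4 fell (−0.23). Oligodendrocyte markers fell in 4 of 5 (median −0.95), microglia markers in 5 of 6 (−1.10) and endothelial markers in 1 of 2 (−0.87). Of the markers of choroid plexus and blood only Ttr was tested, and it did not pass (−0.32). Summed signals of the 7 microglia markers were 1475 to 1988 on the HuD arrays, 2920 to 4647 on the IgG arrays and 4466 in the input. Those of the 5 oligodendrocyte markers were 9336 to 13411, 14104 to 21033 and 12551, those of the 5 endothelial markers 129 to 154, 305 to 359 and 317, and those of the 8 neuron markers 25414 to 30228, 23874 to 24707 and 22855. Those of the 6 astrocyte markers were 13568 to 15509, 15724 to 19188 and 16003, and those of the 6 markers of hippocampal neurons 2416 to 2977, 3488 to 4222 and 4243. The HuD arrays were thus below both IgG arrays in each of these lists except that of neurons, where they were above them, and no marker was at exactly 0 on any array. Such sums follow the brightest markers, such as Mbp, which read 8405 to 12432 on the HuD arrays. Not every marker went with the sum of its list: the neuron markers Gad1 and Rbfox3 fell, and the astrocyte marker Gja1 rose.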

How the data were processed

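The deposited table held 1 intensity per probe set and array on a linear scale, already scaled by the authors: the mean without the lowest and highest 2% was 150 on all 6 arrays, as the values show. The software behind it is not given in the sources used here. Of 45101 probe sets, 64 were controls. The platform annotation named 34945 with 1 symbol, 932 with several and 9160 with none. Only the first were used, and each gene took its probe set with the highest mean log2. Genes in the upper part of mean log2(signal + 32), split at the median, were tested with limma 3.58.1 in R 4.3.3: 1 mean per group over all 6 arrays, eBayes with a mean-variance trend, 3 residual and 8.4 prior degrees of freedom, and a Benjamini-Hochberg threshold of 0.05. A fit over single probe sets ran alike. The fit for HuD against IgG was tried on simulated data with the same spread for all genes, unlike the real arrays. The choice of probe sets, the filter, the scalings and the other comparisons were not tried in that way. The number of arrays limits the precision. Array numbers follow the order of deposit within a group and only name arrays. The members and all lists were chosen with earlier results of these data known. Per-array signals were given for the 8 largest differences between HuD and IgG past the threshold without overlap, for every rise, for the largest and smallest of each role, and for the 4 largest against the input, with others added after their values were seen. From each related list the 3 largest were named, and further members after their values were seen. Alternatives covered scaling, pseudocounts of 16 and 64, the filter, probe set averaging, the trend, title suffix or number as a block, each array left out, and only the groups compared. Probe set averaging took in probe sets too dim to be tested alone, which can draw a difference towards 0.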

Additional observations from a re-analysis of the deposited data

How the results depend on the processing

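With arrays centred on their 75th percentile, 23 members fell for HuD against IgG. The medians then were −0.82 over all members, −0.67 for Psmd, −0.61 for Psme, −0.74 for Psmg, −0.43 for base chaperones and −0.77 for the lid. Against the input they were −1.11 over all members, −1.05 for Psmb, −1.08 for Psmd and for the lid, −1.13 for Psme, −0.78 for Psmg and −0.59 for base chaperones. The medians of all tested genes were then 0.03 against IgG and 0.04 against the input. Quantile normalization gave −0.78 and −0.82 for Psmg, and −0.48 and −0.66 for base chaperones, against IgG and input. All tested genes then had medians of −0.12 and −0.13. Median centring put Psmg at −0.31 for IgG against input, where all tested genes had a median of −0.29. A pseudocount of 64 put Psmg at −0.92 for HuD against input. With no filter 1 member rose against the input. With probe sets averaged 1 member rose there, and the medians were −1.17 over all members, −0.95 for Psme, −0.72 for Psmg and −1.19 for the base without ATPases. Against IgG that setting gave −0.55 for Psme, −0.66 for Psmg, −0.94 for the base without ATPases and −0.015 for the structural beta subunits. It turned Psme3 to 0.18 against IgG and Psmc6 to −0.20 against the input, and 75th percentile centring turned Psmd3 to 0.026.

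Leaving out each array moved the HuD against IgG medians from −1.53 to −0.93 for Psmb and from −1.39 to −0.95 for Psmg. The IgG against input medians ran from −0.57 to 0.36 for Psma, −0.37 to 0.024 for Psme, −0.43 to 0.28 for Psmg, −0.66 to 0.052 for the catalytic and −0.43 to 0.37 for the structural beta subunits. Psmg4 ran from −1.79 to 0.000178. In every setting for HuD against IgG between 23 and 36 members fell and 3 or 4 rose, and against the input between 23 and 35 fell. Falls over all tested genes moved too. Against IgG they ran from 1702, with 75th percentile centring, to 3278, with the title number as a block. Against the input they were 1041 with 75th percentile centring and 3035 with only the groups compared.

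For arrays that share a number in their titles, deviations from the group means were correlated over the tested genes. The correlation was −0.03 for HuD array 1 with IgG array 1 and 0.395 for HuD array 3 with IgG array 2. For HuD array 2 with IgG array 1, which share no number, it was 0.337. The 2 IgG arrays deviate from their mean in mirror image, so these values cannot decide whether arrays were paired. With the title suffix as a block, 32 members fell and 4 rose against IgG, the calls on Psmc5, Psmf1 and Psme3 being lost. Of all 9097 tested genes 2927 then fell and 1908 rose. Against the input 29 members fell and 2 rose, where 1739 of all tested genes fell and 1114 rose. The Psmg median there was −1.42, with −0.32 for IgG against input. With the number as a block 36 members fell and 4 rose against IgG, where 3278 of all tested genes fell and 2138 rose. IgG against input with only its own groups was not run, since it leaves 1 residual degree of freedom. Causes of these shifts were not tested.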
